A study of Mus musculus with 6 samples.

Results

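The lysosomal hydrolases and membrane proteins are 44 mouse genes, chosen by name, whose products digest material inside the lysosome or sit in its membrane. Every probe set annotated to exactly 1 of these symbols was taken, which gave 100 probe sets of 43 genes, out of 34945 single-symbol probe sets of 18193 genes on the array. Cd63 was not analysed here. The cells were mouse breast cancer cells grown in serum-containing medium and sorted by the surface proteins CD24 (a mucin-like glycoprotein) and CD29 (integrin beta-1) into CD24+CD29+ and CD24-CD29- cells, with 3 arrays per group. Per the labels, both groups are breast cancer stem cells; the sources used here give no cell line, mouse strain or age. The design text calls the 3 sample sets biologically independent, but nothing used here says whether cultures, sorts or animals were separate, so the p-values measure the spread between these samples, which may be partly technical. RNA was hybridised to Affymetrix Mouse430_2 arrays, and the deposited values are RMA expression values on the log2 scale. All differences below are CD24+CD29+ minus CD24-CD29- on that scale, with the standard error (SE) of a limma fit over all genes and p-values adjusted over all genes by the Benjamini-Hochberg method at a threshold of 0.05.

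The lysosome is the acidic compartment in which proteins, glycans, glycosaminoglycans and lipids are broken down. Its hydrolases are made in the endoplasmic reticulum, most of them are tagged with mannose 6-phosphate, and receptors carry them to the lysosome, where many are cut to their active form. The transcription factors TFEB and TFE3 bind a short palindromic motif in the promoters of many of these genes. In mammary tissue and in breast tumours, lysosomal proteases such as cathepsins B, D and L are also known as secreted enzymes that act on the matrix around the cells.

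The motif known for these factors was searched for in the members' promoters, as a match of bases only. The stretches below are shown because each holds the motif upstream of a gene whose values are described here. The windows come from RefSeq on GRCm38.p6 and run from 250 bases before a gene's start to 50 after it. Of the 43 genes, 38 had such a window. Each stretch is given 5′ to 3′ on the gene's strand and ends before the start, with every TCACGTGA in capitals.
Ctsa, chr2:164833738-164833772, plus strand: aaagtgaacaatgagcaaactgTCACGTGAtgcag
Cln3, chr7:126583331-126583380, minus strand: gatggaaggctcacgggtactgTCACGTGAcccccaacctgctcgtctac
Ctsd, chr7:142387899-142387948, minus strand: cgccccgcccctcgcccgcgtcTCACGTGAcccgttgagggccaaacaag
Mcoln1, chr8:3500451-3500500, plus strand: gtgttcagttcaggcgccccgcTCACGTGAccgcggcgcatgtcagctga
Gla, chrX:134601173-134601255, minus strand: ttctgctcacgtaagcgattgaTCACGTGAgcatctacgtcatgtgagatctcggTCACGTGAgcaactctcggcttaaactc

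The shorter E-box core CACGTG, which lies inside the longer motif, was found in further members, and in the next stretches it is in capitals. Lgmn, Naglu and Glb1 are shown as genes that were higher in CD24+CD29+ cells, Gaa as one that was lower, and Lamp1 because it holds 4 copies.
Lgmn, chr12:102439116-102439163, minus strand: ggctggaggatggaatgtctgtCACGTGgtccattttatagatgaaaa
Naglu, chr11:101069999-101070046, plus strand: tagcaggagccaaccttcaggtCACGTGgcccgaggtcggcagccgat
Glb1, chr9:114401008-114401055, plus strand: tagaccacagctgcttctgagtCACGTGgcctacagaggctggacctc
Gaa, chr11:119267801-119267848, plus strand: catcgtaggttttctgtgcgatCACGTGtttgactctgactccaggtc
Lamp1, chr8:13159078-13159160, plus strand: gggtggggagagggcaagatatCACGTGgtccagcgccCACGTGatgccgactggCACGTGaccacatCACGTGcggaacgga

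Lysosomal genes leaned slightly toward CD24+CD29+ cells, with marked exceptions, and all genes of similar level leaned the same way. Of 43 genes, 22 were higher, 8 were lower and 13 did not pass the threshold. The median difference was 0.19, against -0.04 over all 18193 genes. Of all genes, 34.4% passed as higher and 36.5% as lower, so the members' shares of 51.2% and 18.6% leaned upward. Differences were small, as they were over all genes: 33 of the 43 members differed by less than 0.5, against 13842 of all 18193 genes. The cholesterol exporter gene Npc1 was the 1 member that passed with at least a 2-fold difference, as did 4.67% of all genes. The arrays of the groups did not overlap for 23 members with higher and 12 with lower values, or 81.4% of members, against 73.6% of all genes. In such bulk RNA, fewer cells of a type and less RNA per cell cannot be told apart.

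The share of genes higher or lower differed between levels. Of all genes with a mean below 7 on the log2 scale, 13.2% passed as higher and 50% as lower, whereas of those from 7 to 9 these shares were 54.4% and 22.2%. Only 5 members had a mean below 7, and 15 had a mean of 11 or more. Weighting the shares of all genes by the members' level classes gave 47.6% higher and 28.7% lower, nearer to the members' own shares. From 9 to 11, where 12 members lay, 5 were higher and 4 lower, and the median was 0.03, against 0.20 over all genes of that class. At 11 or more, 8 members were higher and 4 lower. Their median was 0.24, against 0.08 over all genes of that class, of which 46.8% passed as higher and 31.1% as lower. From 7 to 9, 6 of 11 members were higher and 0 lower, with a median of 0.19, against 0.21. Below 7, 3 of 5 were higher and 0 lower, with a median of 0.25, against -0.18. The number of lower members was also the less stable count. It was 8 here, 5 after median centring, 13 after cyclic loess, 5 without the second CD24-CD29- array (Smpd1, Lamp2 and Ctsh no longer passed) and 0 by limma after scaling to added poly-A control RNA. That last scaling moved the median of all genes by 1.08 and turned every member that was lower into a higher one, so "lower" means lower relative to the other genes. With the mean of each gene's probe sets, 16 members rose and 12 fell, with a median of 0.02, against -0.04 over all genes.

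**Figure D1:**
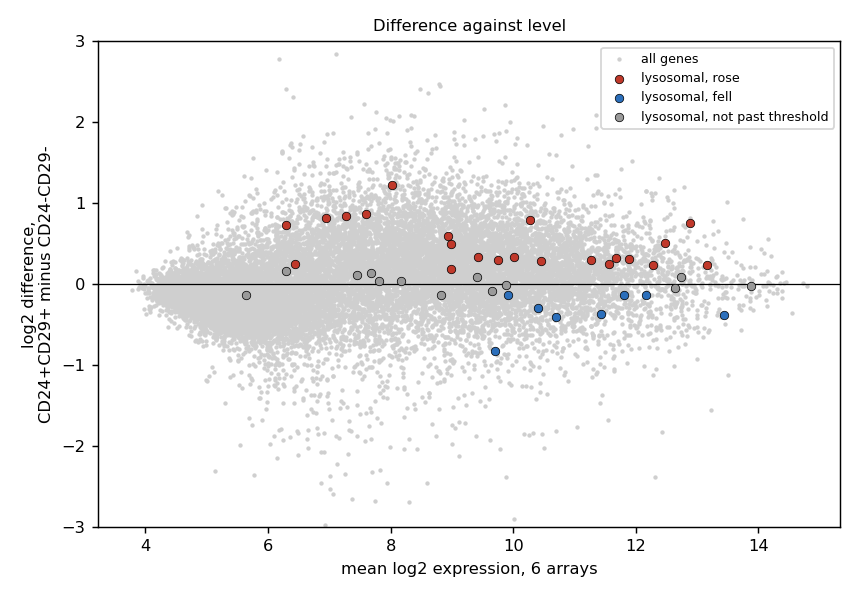
The log2 difference (CD24+CD29+ minus CD24-CD29-) is plotted against the mean log2 expression over 6 arrays, with all genes in grey and the 43 lysosomal genes coloured by call; 11 genes with differences beyond 3 lie outside the plot. The members sit mostly at levels above 7, and their differences lie between -0.82 and 1.22.

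Among the membrane proteins, 4 of 7 were higher, 1 was lower and 2 did not pass. Npc1, which encodes the membrane protein that passes cholesterol out of the lysosome, stood at 8.69, 8.57 and 8.62 on the CD24+CD29+ arrays, against 7.49, 7.39 and 7.36 on the CD24-CD29- arrays. The groups lay far apart relative to their spread, and the 2.33-fold difference (1.22, SE 0.05, limma adjusted p = 1.4e-06) was the largest of any member, read by its only probe set. Mcoln1, which encodes the calcium channel TRPML1 of the lysosomal membrane, had 9.21, 9.24 and 9.27 in CD24+CD29+ cells, against 8.73, 8.62 and 8.59 in CD24-CD29- cells. Its 1.51-fold difference (0.59, SE 0.05, limma adjusted p = 2.8e-05) was matched by its other probe sets, since all 3 were higher, without overlap between the groups on the one used here. Cln3, a membrane protein gene mutated in juvenile Batten disease in humans, was higher by 0.33 (SE 0.05), and by 0.15 and 0.14 after quantile normalization and cyclic loess. With probe sets averaged it did not pass (0.12). Scarb2, which encodes LIMP-2, a membrane receptor that takes part in bringing enzymes to the lysosome, was higher by 0.24 (SE 0.04).

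The structural glycoproteins of the membrane did not share these rises. Lamp1 stood at 13.86 on every CD24+CD29+ array, against 13.90, 13.89 and 13.88 on the CD24-CD29- arrays, a difference of -0.03 (SE 0.04) that did not pass (limma adjusted p = 0.53). The groups were separate by a few hundredths only. Lamp2 was lower by 0.14 on the probe set used (SE 0.04, limma adjusted p = 0.015), at 12.10 ± 0.01 in CD24+CD29+ cells and 12.23 ± 0.02 in CD24-CD29- cells (SD, n = 3 each). Median centring ended this call (-0.0806), as did leaving out the second CD24-CD29- array (-0.13). Its 4 probe sets disagreed. In the fit over all probe sets, 3 of them were lower, by 0.14, 0.28 and 0.51, and 1 was higher, by 0.28, with no overlap between the groups on any of them. Lamp2 transcripts end in alternative last exons, and the files do not say which of them a probe set reads. Cd68, a glycoprotein gene used as a macrophage marker, was dim, at 5.57 ± 0.08 in CD24+CD29+ cells and 5.71 ± 0.04 in CD24-CD29- cells, and its difference did not pass (-0.13, SE 0.05, limma adjusted p = 0.052, or 0.039 with the replicate number as a block).

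**Figure D2:**
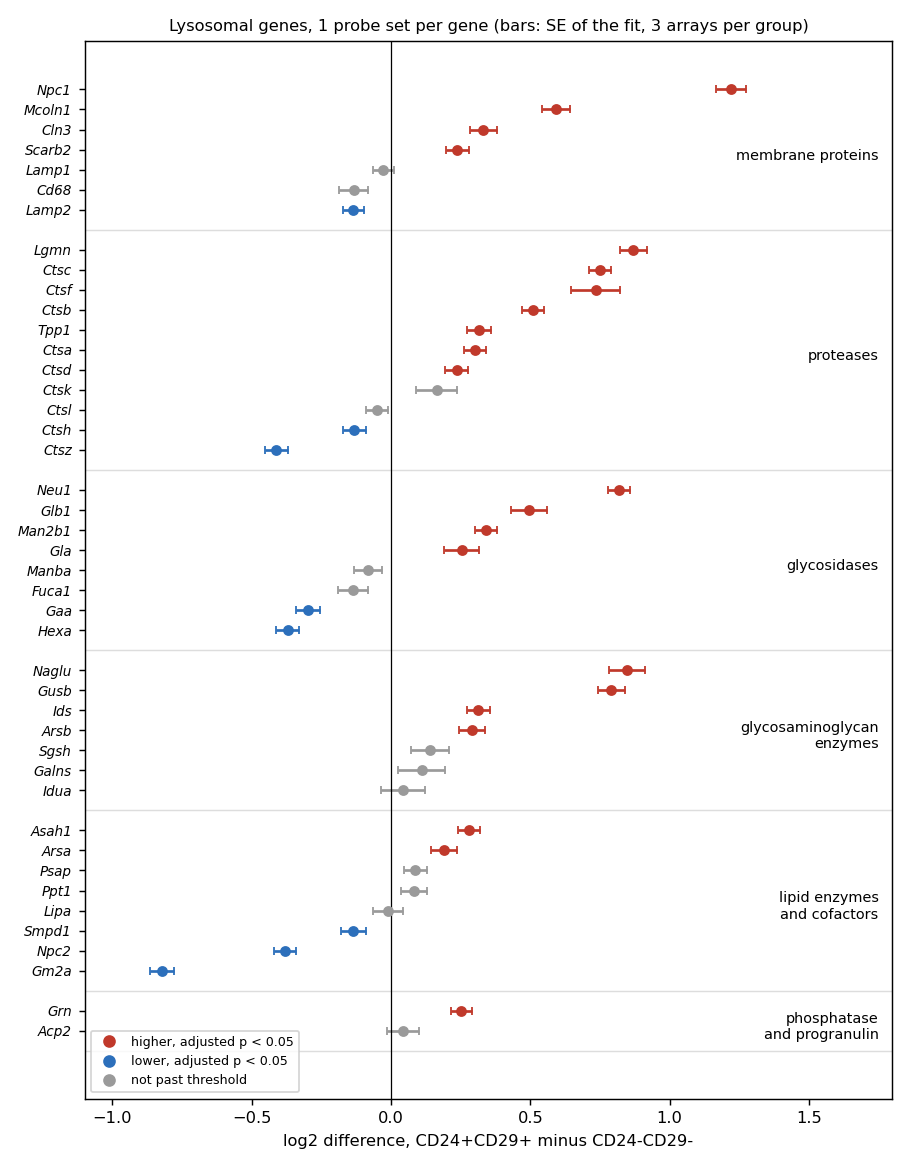
Log2 differences (CD24+CD29+ minus CD24-CD29-) of the 43 lysosomal genes are shown by role, with bars for the SE of the fit over 3 arrays per group and colours for the call. Npc1 lies farthest to the right at 1.22 and Gm2a farthest to the left at -0.82, and the proteases run from -0.41 for Ctsz to 0.87 for Lgmn.

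Of the 11 proteases, 7 were higher, 2 were lower and 2 did not pass. Lgmn, which encodes legumain, an asparagine-specific protease that also trims cathepsins, had 8.08, 7.98 and 8.02 in CD24+CD29+ cells, against 7.19, 7.09 and 7.19 in CD24-CD29- cells. This was a 1.83-fold difference (0.87, SE 0.05, limma adjusted p = 4.3e-06) with clear separation of the groups. Ctsc, whose product cathepsin C removes dipeptides and activates serine proteases of granulocytes, had 13.27, 13.27 and 13.26 in CD24+CD29+ cells, against 12.49, 12.50 and 12.55 in CD24-CD29- cells (0.75, SE 0.04, limma adjusted p = 2.9e-06). The arrays of a group were almost identical. The probe set used lies high on the scale, and the other probe sets of Ctsc, at lower levels, gave larger differences of 1.06 and 1.77.

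Ctsb, which encodes the cysteine protease cathepsin B, had 12.75, 12.71 and 12.73 in CD24+CD29+ cells, against 12.22, 12.21 and 12.22 in CD24-CD29- cells (0.51, SE 0.04, limma adjusted p = 1.6e-05). Here too the groups were far apart relative to their spread. Of its 5 probe sets 4 were higher, by 0.51 to 1.04, and the remaining one, at 0.10, did not pass. Ctsf, another papain-type protease gene, was dim and more variable, at 6.83, 6.51 and 6.64 in CD24+CD29+ cells, against 5.97, 6.00 and 5.81 in CD24-CD29- cells. The groups still did not overlap (0.73, SE 0.09, limma adjusted p = 0.00019), but its other probe set, which can cross-hybridise, was at -0.29 and did not pass. Smaller rises were found for Tpp1 (0.32), the tripeptidyl peptidase gene, for Ctsa (0.30), a serine carboxypeptidase gene, and for Ctsd (0.24), the gene of the aspartic protease cathepsin D. A dim probe set of Ctsa went the other way, at -0.44.

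The remaining cathepsins differed in the opposite direction or not detectably. Ctsz, a carboxypeptidase of the papain family, was lower, at 10.49 ± 0.04 in CD24+CD29+ cells and 10.90 ± 0.01 in CD24-CD29- cells (-0.41, SE 0.04, limma adjusted p = 6.7e-05; SD, n = 3 each). All 3 of its probe sets were lower, the largest difference being -1.01. Ctsh, an aminopeptidase gene, was lower by 0.13 (limma adjusted p = 0.020), a call that median centring ended, as did leaving out the second or the third CD24+CD29+ array or the second CD24-CD29- array. Ctsl, the cathepsin L gene, was at 12.61 ± 0.01 in CD24+CD29+ cells and 12.66 ± 0.03 in CD24-CD29- cells, a difference of -0.05 (SE 0.04) that did not pass. Ctsk, known as the collagen-degrading protease of osteoclasts, was dim, at 6.38 ± 0.08 in CD24+CD29+ cells and 6.22 ± 0.12 in CD24-CD29- cells, and did not pass (limma adjusted p = 0.079).

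**Figure D3:**
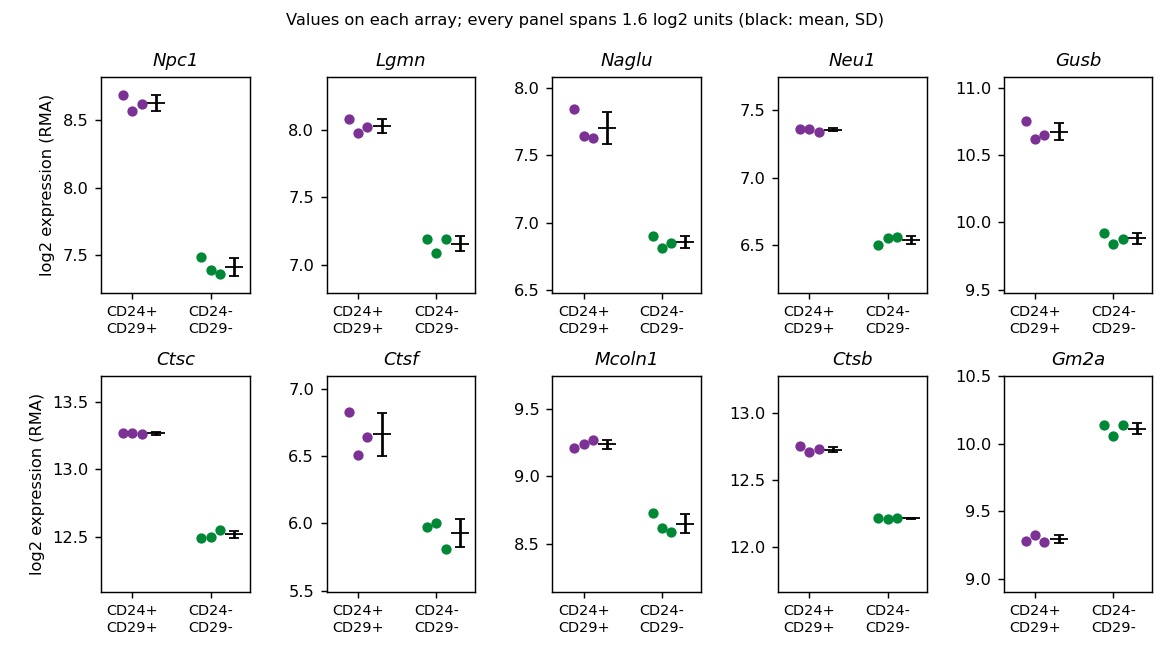
RMA log2 expression on each array is shown for the 10 members that passed the threshold with a difference of at least 0.5, with CD24+CD29+ arrays on the left, CD24-CD29- arrays on the right, and the mean and SD of 3 arrays in black. The groups are separate in every panel, with CD24+CD29+ higher in all of them except Gm2a.

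Of the 8 glycosidases, 4 were higher (50%), 2 were lower (25%) and 2 did not pass. Their median level was 9.32, in the class from 9 to 11, where 56.7% of all genes passed as higher and 22.9% as lower. Neu1, which encodes the lysosomal sialidase, had 7.36, 7.36 and 7.34 in CD24+CD29+ cells, against 6.50, 6.55 and 6.56 in CD24-CD29- cells. The 1.76-fold difference (0.82, SE 0.04, limma adjusted p = 2.1e-06) was shared by a second probe set at 0.25, while a dim one that can cross-hybridise was at -0.44. The Neu1 sialidase works in a complex with cathepsin A and beta-galactosidase, and the genes of the other subunits were also higher: Ctsa by the 0.30 given above, and Glb1, the beta-galactosidase gene, by 0.50 (SE 0.06, limma adjusted p = 0.00027), at 9.24 ± 0.02 in CD24+CD29+ cells and 8.74 ± 0.12 in CD24-CD29- cells. Man2b1, an alpha-mannosidase gene, was higher by 0.34 and Gla, the alpha-galactosidase A gene, by 0.25, a call that ended with probe sets averaged (0.12). A dimmer probe set of Man2b1 was lower, at -0.41.

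Gaa, the alpha-glucosidase that breaks down glycogen in the lysosome, was lower by 0.30 (SE 0.04, limma adjusted p = 0.00053), and both of its probe sets were lower. Hexa, the gene of the alpha subunit of beta-hexosaminidase A, had 11.27, 11.24 and 11.21 in CD24+CD29+ cells, against 11.60, 11.60 and 11.63 in CD24-CD29- cells (-0.37, SE 0.04, limma adjusted p = 0.00011). Every CD24+CD29+ array was below every CD24-CD29- array. Manba, a beta-mannosidase gene, and Fuca1, the alpha-fucosidase gene, were at -0.08 and -0.14 and did not pass, although 2 other probe sets of Fuca1 did, as lower. Both genes passed as lower after quantile normalization, Manba at -0.25 and Fuca1 at -0.34, and after cyclic loess, at -0.27 and -0.35.

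Of the 7 enzymes of glycosaminoglycan breakdown, 4 were higher (57.1%) and the others did not pass. Their median level was 7.82, in the class from 7 to 9, where 54.4% of all genes passed as higher and 22.2% as lower. All 7 differences were positive as deposited, but Sgsh, Galns and Idua were negative after quantile normalization and cyclic loess, as were Arsb, Galns and Idua with each gene's probe sets averaged. Naglu, which removes N-acetylglucosamine from heparan sulfate, had 7.84, 7.64 and 7.63 in CD24+CD29+ cells, against 6.90, 6.81 and 6.85 in CD24-CD29- cells (0.85, SE 0.07, limma adjusted p = 1.9e-05). The first CD24+CD29+ array stood above the other two, and the groups did not overlap. Gusb, the beta-glucuronidase gene, had 10.75, 10.62 and 10.65 in CD24+CD29+ cells, against 9.92, 9.84 and 9.88 in CD24-CD29- cells (0.79, SE 0.05, limma adjusted p = 6.4e-06), and its other probe set was also higher, by 0.92. Ids, the iduronate 2-sulfatase gene, was higher by 0.31 and Arsb, the sulfatase gene for dermatan sulfate, by 0.29. Each of them also had 1 dim probe set that was lower, at -0.24 for Ids and -0.48 for Arsb, and with probe sets averaged neither passed (0.0617 for Ids and -0.11 for Arsb). Cyclic loess also ended the call of Arsb, at 0.11. Sgsh (0.14), a heparan sulfatase gene, Galns (0.11), a keratan sulfatase gene, and Idua (0.04), the alpha-iduronidase gene, did not pass, although a dim probe set of Idua was lower by 0.27.

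Of the 8 lipid enzymes and cofactors, 2 were higher (25%), 3 were lower (37.5%) and 3 did not pass. The class from 9 to 11, which holds this list's median level (9.90), had 56.7% of its genes higher and 22.9% lower. Against that class, the lipid genes had a smaller share of higher and a larger share of lower genes. The balance turned with the scaling, with 4 higher and 2 lower after median centring, where Psap and Ppt1 passed as higher, and 1 higher and 5 lower after cyclic loess. Gm2a encodes the activator protein that lifts the ganglioside GM2 out of the membrane and presents it to hexosaminidase A. It had 9.28, 9.32 and 9.27 in CD24+CD29+ cells, against 10.14, 10.06 and 10.14 in CD24-CD29- cells, a 1.77-fold lower level (-0.82, SE 0.04, limma adjusted p = 2.9e-06) and the largest fall of any member. Hexa, the gene of its partner enzyme's subunit, was lower as well, as described above. Scaled to the poly-A controls, Gm2a and Hexa were at 0.26 and 0.71.

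The genes of the cholesterol-handling pair differed in opposite directions. Npc2, the soluble protein that hands cholesterol to Npc1, had 13.22, 13.27 and 13.26 in CD24+CD29+ cells, against 13.64, 13.62 and 13.63 in CD24-CD29- cells (-0.38, SE 0.04, limma adjusted p = 7.7e-05), while Npc1 was higher by 1.22. The Npc2 groups did not overlap, and a second probe set was lower by 0.52, whereas its remaining 2 did not pass. Under scaling to the poly-A controls Npc2 was at 0.70. Lipa, the acid lipase gene that releases cholesterol from its esters, was at -0.01 (SE 0.05) on the probe set used, with 2 dimmer ones lower.

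Among the sphingolipid enzymes, Asah1, the acid ceramidase gene, was higher by 0.28 (SE 0.04, limma adjusted p = 0.00039), and Arsa, the sulfatide sulfatase gene, by 0.19, which turned to -0.01 and -0.02 after quantile normalization and cyclic loess. Smpd1, the acid sphingomyelinase gene, was lower by 0.14 (limma adjusted p = 0.029), a call that median centring ended, as did leaving out any array except the third CD24-CD29- one. Psap, the precursor of the saposins that activate sphingolipid hydrolases, was at 12.79 ± 0.02 in CD24+CD29+ cells and 12.70 ± 0.03 in CD24-CD29- cells and did not pass (0.09, SE 0.04, limma adjusted p = 0.086). Ppt1, which removes palmitate from proteins, was at 0.08 and did not pass either. Of the remaining members, Grn, the gene of progranulin, a precursor of granulin peptides, was higher by 0.25 on the probe set used, but its brightest probe set, which can cross-hybridise, was lower by 0.15. Acp2, an acid phosphatase gene, was at 0.04 on the probe set used, while its other 2, at nearly the same level, were higher by 0.40 and 0.44.

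Probe sets of the same gene therefore often differed. In the fit over all single-symbol probe sets, 31.9% passed as higher and 34.4% as lower. Of the members' 100 probe sets, 38 rose, 30 fell and 32 did not pass. Of the 33 with a mean below 7, 6 rose and 11 fell, and of the 67 at or above 7, 32 rose and 19 fell. Of the 31 genes with more than 1 probe set, 9 had all of theirs past the threshold in 1 direction, and 8 had some past it in each direction (Arsb, Ctsa, Grn, Ids, Lamp2, Man2b1, Neu1 and Ppt1). Of the 22 members that were higher, 16 had no probe set that was lower, and of the 8 that were lower, 7 had none that was higher. These counts include members with only 1 probe set, which could not disagree. Such members were Naglu, Glb1, Asah1, Arsa, Npc1, Lgmn and Ctsd among the higher, and Hexa among the lower. The higher members that did have a lower probe set were Arsb, Ctsa, Grn, Ids, Man2b1 and Neu1.

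**Figure D4:**
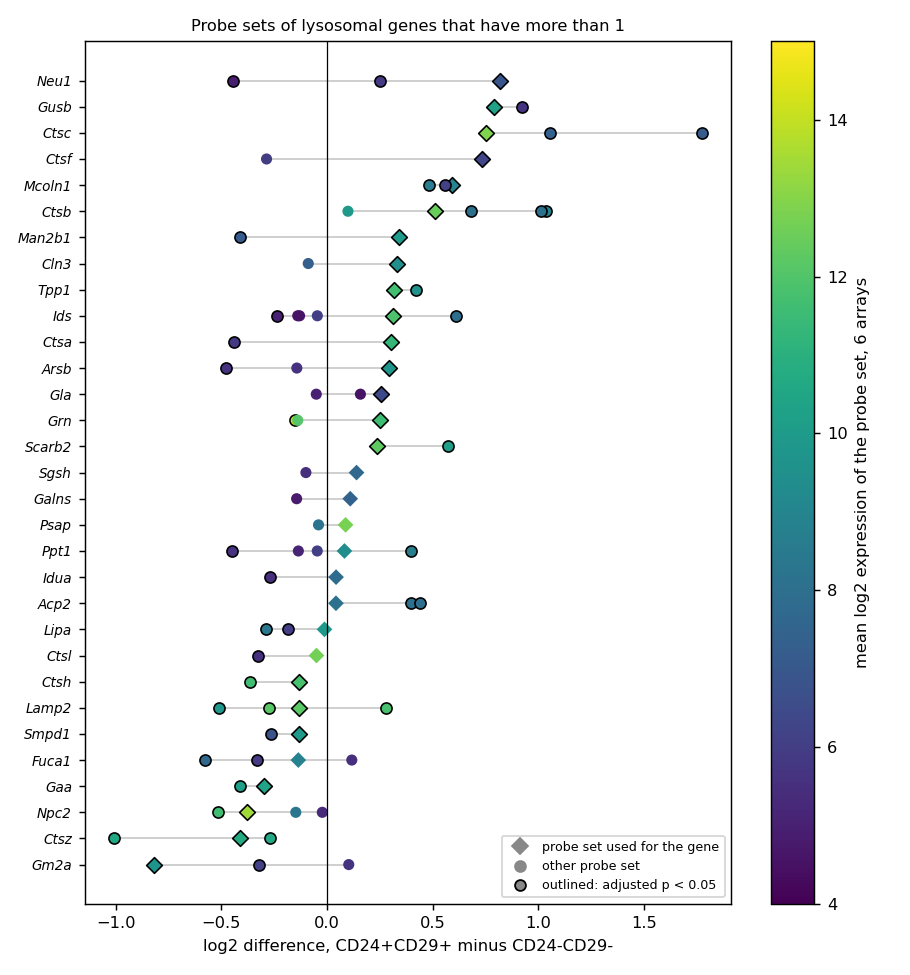
Log2 differences (CD24+CD29+ minus CD24-CD29-) are shown for every probe set of the 31 members with more than 1, coloured by mean log2 expression over 6 arrays; diamonds mark the probe set used for the gene and outlines mark an adjusted p below the threshold. Lamp2 has outlined probe sets on both sides of 0, while all those of Ctsc and Mcoln1 lie to the right of it and all those of Ctsz to the left.

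The promoter motif was set beside these differences as a description. TCACGTGA, which is its own reverse complement, was found in 5 of 38 members with a window (13.2%), against 304 of 27025 genes (1.13%). Those 5 were Cln3, Ctsa, Ctsd, Gla and Mcoln1. On the probe sets used all were higher, by 0.24 to 0.59, with a median of 0.30. With each gene's probe sets averaged, Cln3 (0.12), Gla (0.12) and Ctsa (-0.0691) did not pass. The core CACGTG, also palindromic and counted with the longer motif, was found in 14 members (36.8%), against 8.09% of genes. Of these 14, 10 were higher, 1 was lower and 3 did not pass (median 0.28). Of the 24 members without it, 9 were higher, 6 were lower and 9 did not pass (median 0.06). Lamp1, with 4 copies within 61 bases of its start, did not pass, and Neu1, Gusb and Ctsc were higher with no copy in the window. These counts rest on few genes, and the match says nothing about whether a factor was bound. The motif is known from promoters of many of these genes, so its share among them is not a separate finding. Calls were not counted over all genes that hold it, so the members' directions have no background beside them.

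The genes of the factors themselves did not move together. Of the family that binds this motif, Tfe3 was higher by 0.33 (limma adjusted p = 0.0028), a call that quantile normalization and cyclic loess ended at 0.13 and 0.12, and Tfec, dim in both groups, was higher by 0.38. Mitf was lower by 0.25 (limma adjusted p = 0.0014), and Tfeb, at -0.14 (SE 0.07, limma adjusted p = 0.093), did not pass. Tfeb did pass as lower after quantile normalization and cyclic loess, at -0.33 under each, and without the first CD24+CD29+ array, at -0.20. Rragd, a GTPase through which nutrients control these factors and mTORC1 at the lysosome, stood at 6.83, 6.67 and 6.74 in CD24+CD29+ cells, against 9.73, 9.81 and 9.77 in CD24-CD29- cells (-3.02, SE 0.05). Rragd belongs to none of the lists read here and was picked singly, with earlier results known. A link between Rragd and the values above was not tested.

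Related genes outside the set gave a wider range of differences. Of all genes with a mean level from 7 to 9, 54.4% passed as higher and 22.2% as lower, with a median of 0.21. Of 23 other lysosomal enzymes measured, with a median level in that class (8.70), 12 were higher (52.2%) and 9 lower (39.1%). Their median difference was 0.26. The largest rises were those of Galc, the galactosylceramidase gene, at 7.05 ± 0.06 in CD24+CD29+ cells and 5.42 ± 0.17 in CD24-CD29- cells (1.62, SE 0.08, limma adjusted p = 2.8e-06), and of Siae, a sialic acid esterase gene (1.09). The largest falls were those of Ctss, the cathepsin S gene, at 6.40 ± 0.17 in CD24+CD29+ cells and 9.08 ± 0.07 in CD24-CD29- cells (-2.68, SE 0.09), and of Ctse, the gene of an aspartic protease (-1.52, SE 0.04). With each gene's probe sets averaged, Galc was at 0.55, Siae at 0.68 and Ctse at -0.68, and all still passed. On the probe sets used, cathepsins spanned differences from -2.68 for Ctss to 0.75 for Ctsc. Of 29 other membrane proteins of the lysosome, with a median level of 8.45, 13 were higher (44.8%), 5 were lower (17.2%) and 11 did not pass. None of these calls reached 2-fold, and both shares were below those of all genes from 7 to 9. Slc66a1, a transporter of cationic amino acids, and Mfsd1 led the rises at 0.58 and 0.56, and Slc11a1, a metal transporter known from macrophages, and Glmp led the falls at -0.48 and -0.28.

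Genes that deliver enzymes to the lysosome were mostly higher, with 15 of 21 higher (71.4%), 3 lower (14.3%) and a median of 0.23. Their median level was 9.66. Of all genes from 9 to 11, 56.7% passed as higher and 22.9% as lower, with a median of 0.20. Vps11, a core subunit of the tethering complexes CORVET and HOPS, was higher by 1.51 (10.04 ± 0.05 in CD24+CD29+ cells and 8.53 ± 0.02 in CD24-CD29- cells, SD, n = 3 each). Gnptab, the enzyme that makes the mannose 6-phosphate tag, was higher by 0.75 (SE 0.06, limma adjusted p = 2.4e-05). The receptors of the tag, chosen after their values were seen, were also higher, Igf2r by 0.61 and M6pr by 0.38. Sumf1, which activates all sulfatases by modifying their active site, was lower by 0.80 (9.76 ± 0.09 in CD24+CD29+ cells and 10.55 ± 0.05 in CD24-CD29- cells), and Sort1, a sorting receptor for several lysosomal proteins, by 0.39. With probe sets averaged, Vps11 was at 0.72, Sumf1 at -0.18 and Sort1 at -0.14, all still past the threshold. Of the cystatin-type inhibitors of cysteine cathepsins, Ctla2a was higher by 0.62, Cst3 and Cstb were lower by 0.16 and 0.18 (calls that ended after median centring for Cst3, at -0.11, and, for Cstb, at -0.0877 after quantile normalization and -0.0938 with probe sets averaged), and Cst6 (0.03), Ctla2b (-0.03) and Cst7 (-0.15) did not pass.

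**Figure D5:**
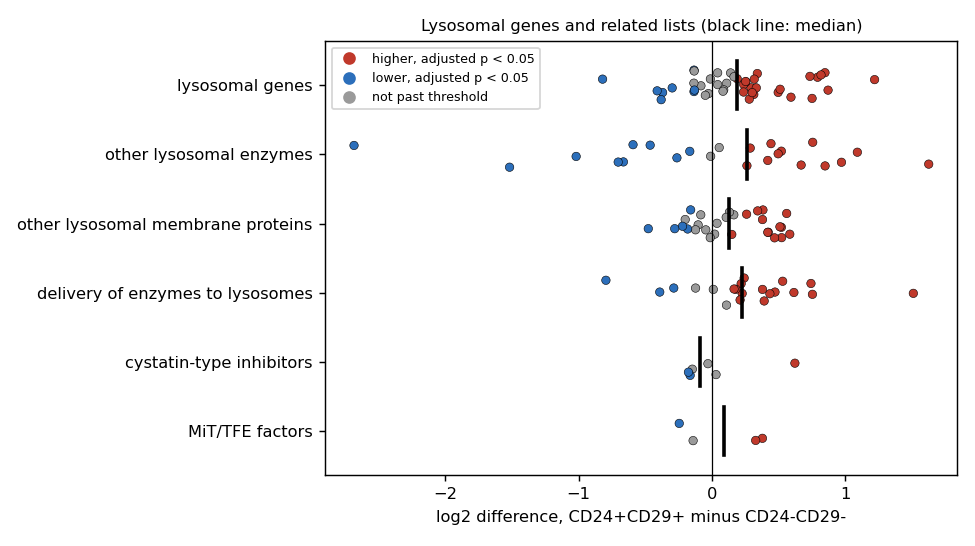
Log2 differences (CD24+CD29+ minus CD24-CD29-) are shown for each gene of the lysosomal set and of the 5 related lists, coloured by call, with the median as a black line. The set itself stays between -0.82 and 1.22, while the other enzymes run from -2.68 for Ctss to 1.62 for Galc.

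Itgb1, which encodes CD29, was at 10.94 ± 0.05 in CD24+CD29+ cells and 10.06 ± 0.03 in CD24-CD29- cells (SD, n = 3 each), a difference of 0.87. Cd24a was at 13.00 ± 0.02 in CD24+CD29+ cells and 12.79 ± 0.03 in CD24-CD29- cells, a difference of 0.21, so its RNA also read high in the cells labelled CD24-. Markers of other cells that a culture could hold were read on the same arrays. Epithelial genes were high in both groups, Epcam at 14.11 ± 0.02 in CD24+CD29+ cells and 14.13 ± 0.02 in CD24-CD29- cells, and 2 of 9 epithelial markers were higher and 5 lower. The basal keratin genes Krt14 and Krt5 were higher by 0.99 and 0.65, and the luminal keratin genes Krt19, Krt18 and Krt8 were lower by 0.95, 0.42 and 0.17, sizes like those of the members. All 9 fibroblast markers were higher, with a summed level (log2 of the summed linear values) of 14.83 to 14.92 in CD24+CD29+ cells, against 14.24 to 14.26 in CD24-CD29- cells. Dcn, the decorin gene, averaged 12.74 in CD24+CD29+ cells and 11.59 in CD24-CD29- cells. Of 12 leukocyte markers 9 were lower (75%), with a summed level of 12.65 to 12.66 in CD24+CD29+ cells, against 12.93 to 12.96 in CD24-CD29- cells, most of it from Cd14. These markers were mostly dim, with a median level of 6.23, and of all genes below 7, 50% passed as lower. The pan-leukocyte gene Ptprc was at 4.85 ± 0.14 in CD24+CD29+ cells and 4.94 ± 0.15 in CD24-CD29- cells, below the lower quartile of every array (5.20 to 5.41), and Itgam and Aif1 were below it too. Endothelial markers had a summed level of 7.87 to 8.01 in CD24+CD29+ cells, against 7.80 to 8.02 in CD24-CD29- cells. Leukocytes and fibroblasts also express many lysosomal genes, and the part of these markers in the differences above was not tested.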

How the data were processed

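The deposited values are log2 expression per probe set; per the submitters' processing notes the authors made them with RMA and Partek, and no source used here gives their versions, settings or order. The mean over 45101 probe sets was 6.93 on all 6 arrays, but the spread differed by group. The SD was 2.10 to 2.14 on CD24+CD29+ arrays and 2.01 to 2.03 on CD24-CD29- arrays. The lower quartile was 5.20 to 5.27 on CD24+CD29+ arrays and 5.37 to 5.41 on CD24-CD29- arrays. A link between this spread and the differences by level was not tested. Names came from GEO's table for the platform, possibly outdated; 34741 single-symbol probe sets were found in RefSeq's GRCm38.p6 table with no symbol updated. The files name no genome build. A gene was read by its probe set with the highest mean, leaving out those ending in _x_at (prone to cross-hybridisation) where another existed. limma 3.58.1 (R 4.3.3), with lmFit and eBayes and neither a block nor a trend, compared the groups over 18193 genes, and again over 34945 probe sets for probe-set results, where differences are the same and p-values can differ slightly. The fit was tested on simulated data. Precision is limited by how few arrays there are, with a median SE of 0.06.

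The members, lists and tests were chosen with earlier results of these data known. Members past the threshold that differed by at least 0.5 have their values on every array; from each related list the 2 largest rises and falls are named, and lists of up to 6 genes in full. Rragd, Igf2r and M6pr were named outside this rule. Not all list genes were analysed here. The labels name no pairing, so none was used. Deviations of same-numbered arrays correlated weakly for number 1 (0.222 over genes) and hardly for the others (-0.054 and 0.044).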

Additional observations from a re-analysis of the deposited data

How the results depend on the processing

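Results were recomputed under 15 other settings. Of the 30 members that passed, all 30 kept direction and side of the threshold with a mean-variance trend and with the replicate number as a block, 29 of 29 tested without the dimmest 40% of genes, and 27 to 30 when 1 array was left out. With the block Cd68 also passed (limma adjusted p = 0.039), and no other member changed its call. The block moved the count of all genes past the threshold from 12889 to 12867; 3 of 6 arrays correlated best with their own number. Leaving out 1 array gave 22 to 24 higher members, 5 to 9 lower members and a median of 0.18 to 0.23. Without the dimmest 40% of genes, 2966 genes were lower, against 6638, by construction among fewer genes. The median of the members kept was then 0.21, against 0.15 over all genes kept.

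Other normalizations and summaries moved single values further, and the cause was not tested. Of the 30 members that passed, 29 kept their call after quantile normalization, 28 after cyclic loess, 27 after median centring and 23 with probe sets averaged, and 8, 8, 3 and 13 of them moved by over 1.5 times or turned. Of the 13 that had not passed, 6 passed after quantile normalization (Manba, Fuca1, Lipa and Acp2 as lower, Psap and Ctsk as higher) and 6 after cyclic loess (those 4 and Ppt1 as lower, Ctsk as higher). After median centring, 4 passed (Psap, Ppt1, Sgsh and Ctsk, as higher) and 5 with probe sets averaged (Fuca1, Cd68, Ctsl and Lipa as lower, Acp2 as higher). The members' median was 0.13 after quantile normalization, 0.11 after cyclic loess, 0.24 after median centring and 0.0194 with each gene's probe sets averaged; 13 members were lower after cyclic loess and 5 after median centring. Quantile normalization put Arsa at -0.0147 and Acp2 at -0.16, and cyclic loess put Arsa at -0.0188, Acp2 at -0.16 and Ppt1 at -0.11. Averaging turned Arsb (-0.11), Man2b1 (-0.0365), Grn (-0.0127) and Ctsa (-0.0691), none of which then passed, and ended the calls of Ids (0.0617), Gla (0.12) and Cln3 (0.12); Neu1 was then at 0.21, Ctsf at 0.22 and Gm2a at -0.35, past the threshold. In addition, the brightest probe set turned Grn (-0.15).

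The poly-A control RNAs (24 probe sets) were higher on CD24-CD29- arrays, with a median difference of -1.17. Scaled to them, 17842 genes were higher and 178 lower, or 99.0% higher of those past the threshold, against 48.5% as deposited. All 43 members and 99 of their probe sets were higher and 0 were lower, with a median of 1.27. This scaling moves every gene on an array equally, so the members' distance from the median of all genes stays at 0.22 by construction. That distance was 0.16 after quantile normalization and 0.14 after cyclic loess. It was 0.0605 without the dimmest 40% of genes and 0.0621 with probe sets averaged. Members at or below 0 as deposited became Manba 1.00, Fuca1 0.95, Gaa 0.78, Hexa 0.71, Lipa 1.07, Smpd1 0.95, Npc2 0.70, Gm2a 0.26, Lamp1 1.06, Cd68 0.95, Lamp2 0.95, Ctsl 1.03, Ctsh 0.95 and Ctsz 0.67. Related genes became Cst3 0.92, Cstb 0.91, Sort1 0.69, Sumf1 0.29, Mitf 0.84, Glmp 0.80, Slc11a1 0.60, Ctla2b 1.05, Cst7 0.93 and Tfeb 0.94, while Ctss and Ctse stayed lower.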
